A study of Mus musculus with 16 samples.

Results

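Reprogramming turns a differentiated cell into an induced pluripotent stem (iPS) cell by supplying the transcription factors Oct4 (gene Pou5f1), Sox2, Klf4 and c-Myc (gene Myc). A clone that is fully reprogrammed switches on its own pluripotency network, takes on an epithelial form and no longer needs the supplied factors. A partially reprogrammed clone grows as colonies and has silenced much of its former programme, but keeps a large part of the pluripotency network off and still depends on the factors. Nanog, Esrrb, Tfcp2l1, Zfp42 and Dppa3 are genes that mouse embryonic stem (ES) cells express and fibroblasts do not.

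The comparison set 4 clones made with iHAC1 (1-A3, 1-B, 1-C3 and 1-D6) against 4 lines free of the vector (F-B1 and F-C5, F-E4 and F-N7). These 8 of the 16 samples of the series were chosen by their titles. In the values below, clones and lines always stand in this order. iHAC1 is a human artificial chromosome that carries 2 copies of each of 4 mouse cDNAs (Klf4, c-Myc, Sox2 and Oct4), each driven by the CAG promoter between HS4 insulators, and an EGFP marker. It was moved by microcell fusion into mouse embryonic fibroblasts (MEFs) of C57BL/6-J background, which also received microRNA mimics, and EGFP-positive colonies were picked. The iHAC-free iPS lines were made from the same kind of MEF with iHAC2, which carries 2 further copies of Oct4 and a short hairpin RNA against p53, and were afterwards isolated as EGFP-negative subclones that had lost the vector, 1 from each of 4 iHAC2-iPS clones. Both groups were grown on MEF feeder layers in ES medium with LIF. The groups therefore differed in the vector that made them, in the p53 hairpin during reprogramming, and in whether a vector was still present, and these cannot be told apart here. Each sample was 1 clone or line, so that the spread is between clones. None of the 16 samples was a vector-free subline of an iHAC1-iPS clone, and the study established no such line. The MEF array, the ES lines B6ES and TT2 and the retroviral iPS line 20D17 served as reference points.

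RNA was read on whole mouse genome arrays of Agilent with 1 dye, and each sample had 1 array. A level is the log2 of the background-subtracted signal relative to the 75th percentile of its array, so that 0 lies at that percentile and a step of 1 is a doubling. Of 41174 probes, 31415 passed background on 1 or more of the 16 arrays and were tested with limma. A call required a 2-fold or larger difference and a Benjamini-Hochberg adjusted p under 0.05 over all tested probes. On the 8 arrays 59.4% to 63.0% of the spots passed this background limit, and no spot was saturated. All iHAC1-iPS clones, the MEFs and the ES lines were read in 1 scan session and all iHAC-free iPS lines in the other, so that a difference between sessions cannot be told apart from one between groups. The levels describe RNA from whole cultures, in which fewer cells of a type and less RNA per cell cannot be told apart.

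The probes and promoters below belong to genes that the results describe in detail. The first probe is that of Pou5f1, at chr17:35647280-35647340 of mm9 as the array design gives it, and the capitals mark the forward primer Oct4-906F of the study inside it. The second is a Myc probe, at chr15:61820925-61820984 of mm9, in which 2 of the reading frames of the printed strand hold no stop codon. The other pair is assigned by the array design to Hbb-bh1, an embryonic beta-like globin gene, at chr7:110990307-110990366 and chr7:110990327-110990386 of mm9. These probes share 40 bases in lower case, and the capitals mark the bases that only one of them holds.
Pou5f1 probe A_51_P202340: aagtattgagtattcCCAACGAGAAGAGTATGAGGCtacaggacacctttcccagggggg
Myc probe A_52_P278549: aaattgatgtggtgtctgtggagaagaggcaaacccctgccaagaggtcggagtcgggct
Hbb-bh1 probe A_51_P179672: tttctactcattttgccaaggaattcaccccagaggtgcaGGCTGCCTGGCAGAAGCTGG
Hbb-bh1 probe A_52_P305876: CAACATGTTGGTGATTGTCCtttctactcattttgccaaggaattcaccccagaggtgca

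The promoters are the 250 bases before the annotated start of 4 genes in RefSeq's GRCm38.p6 table, 5′ to 3′ on the strand of the gene, with CpG dinucleotides in capitals. They are the first pair of genes in each direction, by size of difference among probes measured on all 8 arrays, that have 1 promoter in that table. Foxd1 lies on the plus strand at chr13:98353995-98354244 and Zic1 on the minus strand at chr9:91365769-91366018, and both were higher in iHAC1-iPS clones. Rhox5 lies on the plus strand at chrX:37754358-37754607 and Pycard on the minus strand at chr7:127993868-127994117, and both were lower.
Foxd1: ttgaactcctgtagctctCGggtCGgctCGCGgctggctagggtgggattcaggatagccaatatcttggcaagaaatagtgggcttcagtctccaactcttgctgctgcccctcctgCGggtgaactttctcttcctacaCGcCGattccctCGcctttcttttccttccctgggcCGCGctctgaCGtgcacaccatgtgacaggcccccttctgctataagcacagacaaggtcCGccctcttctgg
Zic1: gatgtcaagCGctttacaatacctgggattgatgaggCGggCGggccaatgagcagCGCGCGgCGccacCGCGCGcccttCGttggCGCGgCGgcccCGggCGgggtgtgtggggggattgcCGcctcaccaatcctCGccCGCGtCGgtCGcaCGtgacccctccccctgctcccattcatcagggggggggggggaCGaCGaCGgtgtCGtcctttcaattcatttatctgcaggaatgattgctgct
Rhox5: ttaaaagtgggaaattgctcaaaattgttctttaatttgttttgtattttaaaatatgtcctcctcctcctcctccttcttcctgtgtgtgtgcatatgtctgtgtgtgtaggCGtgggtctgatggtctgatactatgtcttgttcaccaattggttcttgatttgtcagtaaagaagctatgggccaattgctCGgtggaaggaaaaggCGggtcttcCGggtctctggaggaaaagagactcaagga
Pycard: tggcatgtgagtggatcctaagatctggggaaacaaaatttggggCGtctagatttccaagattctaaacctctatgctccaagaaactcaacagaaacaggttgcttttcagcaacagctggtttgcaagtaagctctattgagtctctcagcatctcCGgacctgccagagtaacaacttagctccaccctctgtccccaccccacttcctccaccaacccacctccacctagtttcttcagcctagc

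The groups differed at many of the detected transcripts. Of the 31415 probes tested, 6309 were called (20.1%), of which 2825 were higher in iHAC1-iPS clones (8.99%) and 3484 were lower (11.1%). These probes named 1985 genes with a higher probe and 2459 with a lower one. The median difference over all tested probes was 0.03 on the log2 scale. The decreases were the larger changes, with a median fold of 3.60 among lower probes and 2.80 among higher ones. At least 16-fold differences were found for 355 lower and 81 higher probes, and at least 32-fold ones for 156 and 26. The levels of the groups did not overlap at 3276 of the lower and 2596 of the higher probes, and at 13844 of all tested probes. Of the lower probes, 784 were not well above background in any iHAC1-iPS clone, and of the higher ones 654 were not in any iHAC-free iPS line. A further 1283 probes differed 2-fold without passing the test. Under normexp background correction, which lifts dim signals, 2980 probes were called, 2902 of them among the 6309 and in the same direction.

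**Figure D1:**
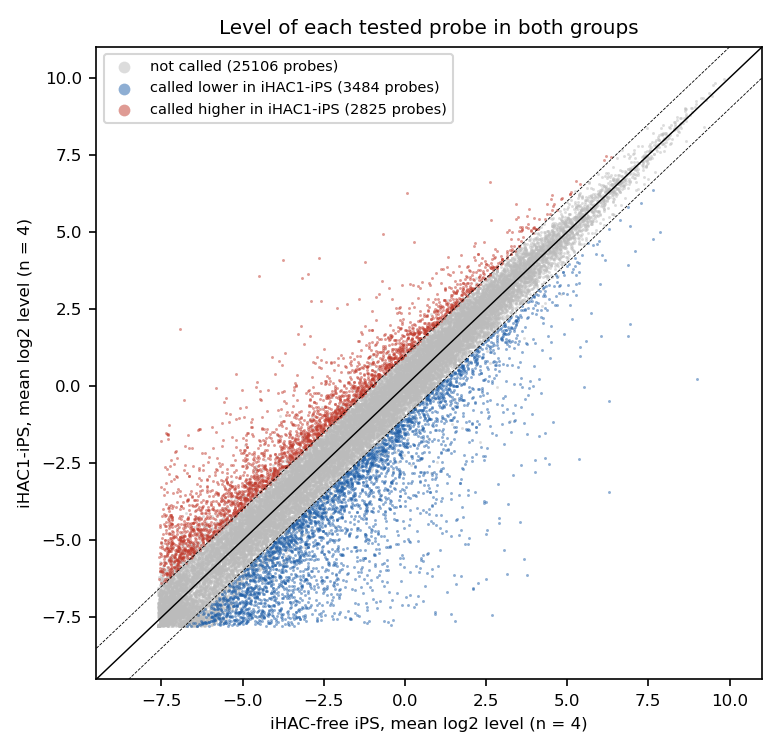
Mean log2 level of each tested probe in the 4 iHAC-free iPS lines (x axis) and the 4 iHAC1-iPS clones (y axis), both relative to the 75th percentile of the array. Dashed lines mark 2-fold differences; 3484 called probes lie below the diagonal, reaching further from it than the 2825 above it.

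To place each clone between the starting cell and the ES state, probes that differed 4-fold or more between MEFs and the ES average were put on a scale on which MEFs are at 0% and ES cells at 100%. Over 1892 probes high in ES cells, the median position was 31.6% in 1-A3, 57.1% in 1-B, 59.0% in 1-C3 and 29.4% in 1-D6. It was 98.6% in F-B1, 97.0% in F-C5, 99.0% in F-E4 and 99.5% in F-N7. The clones 1-B and 1-C3 were well ahead of 1-A3 and 1-D6, while the iHAC-free iPS lines lay within a few percent of each other and of the ES lines. The means were 44.3% ± 15.95 (SD, n = 4) and 98.5% ± 1.11 (SD, n = 4), and the difference of 54.3 percentage points had p = 0.0286 (exact permutation test, two-sided), which no comparison of 4 with 4 samples can go below. The MEF and ES arrays that set the scale were read in the scan session of the iHAC1-iPS clones.

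Over 3244 probes high in MEFs, the iHAC1-iPS clones were closer to ES cells than they were over the ES-high probes. Their median positions were 66.7% in 1-A3, 80.6% in 1-B, 85.6% in 1-C3 and 68.5% in 1-D6, against 92.1%, 84.9%, 93.2% and 88.6% in the iHAC-free iPS lines. The groups overlapped, since 1-C3 was above F-C5. The means of 75.3% ± 9.21 and 89.7% ± 3.76 (SD, n = 4 each) did not pass the exact permutation test (p = 0.0571), whereas the difference, 14.4 points here, had p = 0.0286 in that exact permutation test under quantile normalization, under normexp correction and with probes above background on all arrays. With probes selected at 8-fold instead of 4-fold the difference was 10.1 points and did not pass that exact permutation test. In each iHAC1-iPS clone the MEF-high position exceeded the ES-high position, by 23.5 to 39.1 points. In each iHAC-free iPS line it was lower, with differences of -12.1 to -5.73 points, but this order depended on the processing. Under normexp correction the lines were at 97.55% to 99.73% over MEF-high and at 94.73% to 97.74% over ES-high probes. Under quantile normalization they were at 96.69% to 99.01% and at 96.45% to 99.17%.

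**Figure D2:**
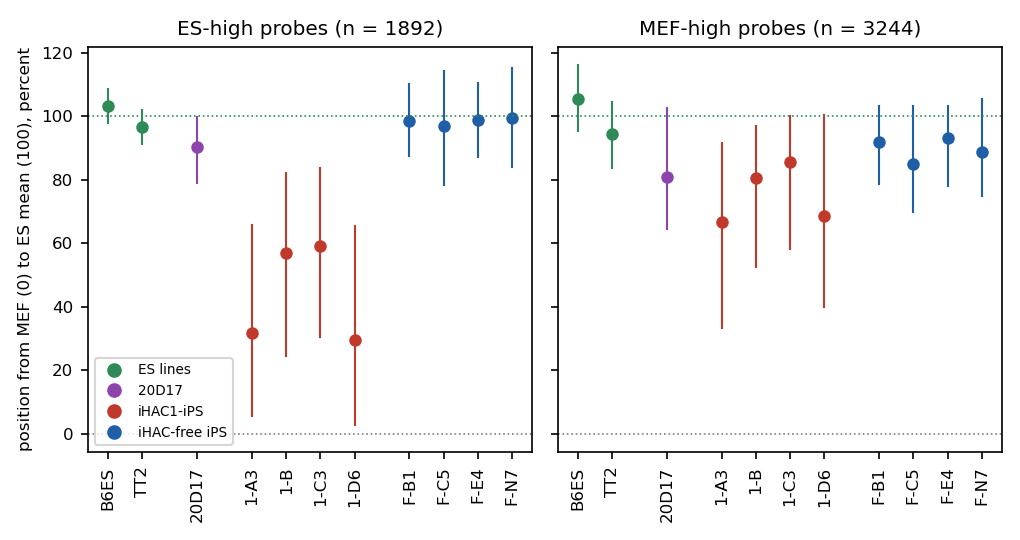
Median position (dot) and range from the lower to the upper quartile (line) of ES-high probes (left, n = 1892) and MEF-high probes (right, n = 3244) for each sample, in percent of the way from the MEF level (0) to the mean ES level (100). The iHAC1-iPS clones sit between 29.4% and 59.0% on the left and between 66.7% and 85.6% on the right.

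The shortfall was not evenly spread over the ES-high probes. By group means, 543 of them (28.7%) were under 25% of the way in iHAC1-iPS clones and at 75% or more in iHAC-free iPS lines, 750 lay between 25% and 75% against 75% or more, and 361 were at 75% or more in both groups. A single ES-high probe showed the opposite pattern. The share of ES-high probes under 25% was 22.4% to 47.2% in the iHAC1-iPS clones and 0.58% to 2.33% in the iHAC-free iPS lines. Among MEF-high probes, 1385 were at 75% or more in both groups and 248 were under 25% in iHAC1-iPS clones and at 75% or more in iHAC-free iPS lines. ES-high probes made up 33.1% of all lower calls and MEF-high probes 28.0% of all higher calls. Of the 1892 ES-high probes, 1152 were lower in iHAC1-iPS clones (60.9%, beside 11.1% of all probes) and 48 higher. Of the 3244 MEF-high probes, 790 were higher (24.35%, beside 8.99% of all probes) and 144 lower. A further 1145 higher and 1137 lower calls were at probes less than 2-fold apart between MEFs and ES cells. Moreover, 479 higher probes lay at least 2-fold above both MEFs and ES cells in iHAC1-iPS clones, and 649 lower ones at least 2-fold below both.

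The probes of the factors carried by iHAC1 did not behave alike. Pou5f1, which codes for Oct4, was at 6.71, 6.63, 6.38 and 6.74 in 1-A3, 1-B, 1-C3 and 1-D6, and at 2.83, 2.47, 2.60 and 2.56 in the iHAC-free iPS lines. The iHAC1-iPS clones were thus above every iHAC-free iPS line and above the ES mean of 3.81. The difference was 4.00 on the log2 scale (SE 0.40, adjusted p = 4.21e-05), 15.9-fold. Sox2, the partner of Oct4 on DNA, was at 1.09, 1.08, 1.62 and 0.69 against 3.49, 3.68, 3.50 and 3.71, a difference of -2.47 (SE 0.50, adjusted p = 0.00255). Klf4, a zinc finger factor of naive pluripotency, was at 2.21, 2.14, 2.19 and 2.97 against 6.03, 5.83, 5.46 and 5.59, a difference of -3.35 (SE 0.46, adjusted p = 0.00026). For both genes the groups did not overlap. In the array design the Pou5f1 probe begins at base 903 of its transcript, the Sox2 probe at base 1846 and the Klf4 probe at base 2160. By qRT-PCR the study reported more transgenic than endogenous expression of the factors in iHAC1-iPS cells. Whether transcripts from the vector reach the Sox2 and Klf4 probes was not tested.

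The 3 Myc probes did not move together. The probe A_52_P278549, shown above, begins at base 1407 of the transcript in the array design. It was at 4.66, 3.63, 3.80 and 4.53 in the iHAC1-iPS clones and at -2.42, -3.08, -2.55 and -2.51 in the iHAC-free iPS lines, a difference of 6.79 (SE 0.43, adjusted p = 2.6e-06). The probe A_52_P108346, at base 1899, differed by 6.18 in the same direction. The probe A_51_P102096, at base 1998, was at -1.28, -0.57, -0.33 and 0.29 against 1.31, 0.72, 1.11 and 1.35, a difference of -1.60 (SE 0.32, adjusted p = 0.0026). So the probes toward the start of the transcript were higher in every iHAC1-iPS clone than in any iHAC-free iPS line, and the one farthest along was lower. iHAC2-iPS clones had a mean of 4.22 at the probe A_52_P108346, where the iHAC-free iPS lines had 0.07. Whether transcripts from the vector give these Myc signals was not tested.

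**Figure D3:**
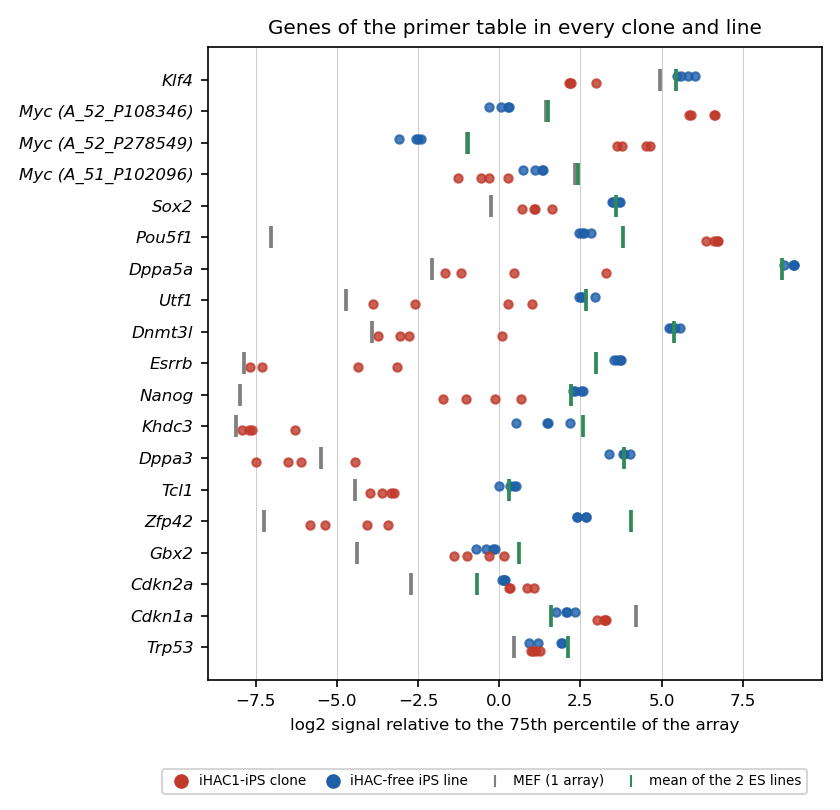
Log2 level, relative to the 75th percentile of the array, of the genes with qRT-PCR primers in the study, for each iHAC1-iPS clone (red), each iHAC-free iPS line (blue), MEFs (grey bar) and the ES mean (green bar). Pou5f1 and the upper Myc probes are to the right in iHAC1-iPS clones, and Dppa3 and Khdc3 lie far to the left of the iHAC-free iPS lines.

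The pluripotency genes measured by the study's own qRT-PCR primers were low in iHAC1-iPS clones. Of 10 such markers, 9 fell and none rose, with a median difference of -7.47, beside 20.1% called and a median of 0.03 over all probes. The median of the markers was -4.82 under normexp correction. Because the study used these genes on the same cells, they are not independent evidence of the direction. Nanog, a homeodomain factor at the centre of the network, was at -1.01, -0.12, 0.66 and -1.74 in 1-A3, 1-B, 1-C3 and 1-D6, and at 2.51, 2.58, 2.33 and 2.27 in the iHAC-free iPS lines. All iHAC1-iPS clones were below all lines, by 2.97 on average (SE 0.58, adjusted p = 0.00207), but far above the MEF level of -7.98. Esrrb, an orphan nuclear receptor that works with Nanog, was at -7.31, -4.35, -3.16 and -7.66 against 3.75, 3.62, 3.54 and 3.73. It was well above background in only 2 of the 4 clones, and in 1-A3 and 1-D6 it lay next to the MEF level of -7.87. The difference of -9.28 had adjusted p = 3.77e-05 (SE 0.91).

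Dppa3, a maternal factor that protects DNA methylation in the early embryo, was at -6.09, -7.50, -4.43 and -6.52 against 3.38, 3.83, 4.03 and 3.82, a difference of -9.90 (SE 0.65, adjusted p = 3.32e-06). Only 1 of the 4 clones was above background for Dppa3, and the difference was -6.57 under normexp correction. Dppa5a, an RNA-binding protein abundant in ES cells, was at -1.67, 0.44, 3.29 and -1.18 against 8.77, 9.06, 9.04 and 9.08. The clones lay far below the lines and far apart from each other. Utf1, a chromatin-bound transcriptional coactivator, was at -3.89, 1.0, 0.28 and -2.60 against 2.46 to 2.94, a difference of -3.92 (SE 0.84, adjusted p = 0.00358). Dnmt3l, the partner of the de novo DNA methyltransferases, was at -3.73, -3.05, 0.09 and -2.77 against 5.23 to 5.56. Zfp42 (Rex1) and Tcl1 fell by 7.20 and 3.87, and Khdc3, an oocyte and ES cell protein, was not well above background in any iHAC1-iPS clone and at least 117-fold lower. Here and below, such a bound compares the bright group's mean with, on each dim array, the larger of the probe's own value and the lowest signal that counts as well above background. The bounds belong to the main processing alone and are not a floor under other settings. For Khdc3 the log2 bound was 6.87, and the smallest difference over the other settings was -4.65. Gbx2, a homeobox gene that supports self-renewal, was the marker that did not pass, at -1.39, -0.99, -0.31 and 0.16 against -0.21, -0.72, -0.41 and -0.13.

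Among 19 core and naive pluripotency regulators, 14 fell and none rose (73.7% called, beside 20.1% of all probes), with a median of -2.49. The list shares Nanog, Esrrb, Zfp42 and Utf1 with the one above. Tfcp2l1, a naive regulator downstream of LIF, was at -3.53, -2.86, -1.71 and -3.40 against 3.52, 3.46, 3.22 and 3.1, a difference of -6.20 (SE 0.61, adjusted p = 3.64e-05), and each of its 4 probes was called lower. Nr5a2, a nuclear receptor that binds the Oct4 gene, fell by 5.24 and was above background in 2 of 4 clones. Klf5 and Tbx3 fell by 3.85 and 2.49, and the zinc finger genes Sall4, Zscan10 and Sall1 by 1.09, 2.19 and 2.17. Klf2 stood apart, at 7.39, 7.45, 7.39 and 7.64 against 6.84, 6.86, 6.91 and 7.06, higher by 0.55 and thus under 2-fold. Lin28a, an RNA-binding protein that blocks let-7 processing, had -7.52, 1.23, 2.05 and -2.94 against 1.97 to 2.47, a difference of -4.12 that missed the threshold (adjusted p = 0.0547). The clones 1-B and 1-C3 were close to the lines for Lin28a, and 1-A3 and 1-D6 were not.

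Of 13 other ES-specific transcripts, 10 fell and none rose (median -4.92), so that 76.9% were called, beside 20.1% of all probes. Tdh, the threonine dehydrogenase on which mouse ES cells rely, was at -1.65, 3.19, 4.66 and 1.90 against 7.23, 6.78, 7.04 and 6.71, a difference of -4.92 (SE 0.98, adjusted p = 0.0024). Eras, an ES-specific Ras, was at -7.54, -0.50, 1.01 and -4.22 against 0.66 to 0.99 and did not pass. Ooep, an oocyte protein, fell by 9.23 (5.94 under normexp correction, with 1 of 4 clones above background). Rhox5, a gene of the X-linked Rhox homeobox cluster, was at -2.75, 1.72, 0.69 and -1.55 against 6.63, 6.67, 6.11 and 5.74. Of the same cluster, Rhox9 was at -4.24, -5.06, -4.61 and -5.23 against 2.21, 2.72, 2.20 and 2.92, and Rhox6 was at least 189-fold lower. Gdf3, a TGF-beta family ligand of pluripotent cells, was not different, at 2.74, 0.94, 2.40 and 2.03 against 1.07 to 1.65. Gdf3 and Sall4 were thus far above their MEF levels of -8.13 and -7.96 in every iHAC1-iPS clone.

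Germline genes, which pluripotent mouse cells partly share, were low in iHAC1-iPS clones. Of 17 tested, 16 fell, none rose, and 8 were not well above background in any iHAC1-iPS clone, with a median of -4.31 (-2.97 with those genes at their bounds, and -1.20 under normexp correction). Thus 94.1% were called, beside 20.1% of all probes. Mael, of the piRNA pathway, was at -7.51, -7.63, -5.56 and -7.97 against 0.02, 0.20, 0.26 and 0.59, at least 52.9-fold lower. Ddx4 (the Vasa helicase) was at -4.76, -5.18, -5.69 and -5.57 against 1.17, 1.20, 0.86 and 1.06, a difference of -6.38 (SE 0.75, adjusted p = 0.000105). The cohesin subunit gene Smc1b was at least 44.6-fold lower, and the synaptonemal complex gene Sycp3 fell by 5.80. Ddx4 and Sycp3 were above background in 1 of 4 clones each, and their differences were -3.80 and -2.48 under normexp correction. Tex19.1, a germline and ES cell gene, was at -6.16, -1.30, 0.42 and -4.09 against 3.70 to 4.29. Tdrd12, of the piRNA pathway as well, was at -4.66, -1.38, -0.00 and -4.06 against 4.17, 4.69, 4.34 and 4.52. Brdt, a testis bromodomain gene, was the member without a call (difference 0.05), and it was also low in the lines. Stra8, the meiosis gene induced by retinoic acid, was at least 129-fold lower and Rbmxl2, a testis RNA-binding protein gene, at least 280-fold lower. Their smallest log2 differences over the other settings were -4.77 and -5.57, which lie under these bounds. The two-cell-stage genes, by contrast, gave 0 calls among 7 tested with limma (median -0.34, but 0.20 under normexp correction), and all settings run gave 0.

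Reprogramming begins with a mesenchymal-to-epithelial transition, in which E-cadherin and its regulators come on. Of 16 epithelial genes, 14 fell and none rose (87.5% called, beside 20.1% of all probes), with a median of -4.54. Cdh1, which codes for E-cadherin, was at -7.35 in 1-A3, 1.45 in 1-B, 1.62 in 1-C3 and -2.17 in 1-D6, and at 4.13, 3.99, 4.29 and 4.10 in the iHAC-free iPS lines. It fell by 5.74 (SE 1.49, adjusted p = 0.0103), and 1-A3 was not above background and below the MEF level of -3.36. Epcam, another adhesion molecule, was at -2.47, 1.38, 1.21 and -1.63 against 2.96 to 3.1. The keratins Krt8 and Krt18 fell by 3.91 and 4.11, with 1-A3 the lowest clone for both. The tight junction gene Cldn4 was at -7.51, -6.37, -5.28 and -7.99 against -0.29, 0.25, 0.52 and 0.22, and the polarity gene Crb3 at -7.01, -1.93, -2.46 and -7.42 against 0.91 to 1.47. Rab25, a vesicle trafficking gene of epithelia, was above background in 1 of 4 clones, at -5.87, -5.48, -5.48 and -5.43 against -0.12, 0.03, -0.33 and 0.14. The junction genes Tjp1 and Dsp were the members without a call, with differences of -0.42 and 0.07.

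Of 16 mesenchymal genes, 5 rose and 1 fell (median 0.51), so that 37.5% were called, beside 20.1% of all probes. The one that fell, Meox1, lost its call under normexp correction. Zeb1 and Zeb2 are repressors of E-cadherin. Zeb1 was at 1.55, 1.82, 1.32 and 1.58 against -0.23, 0.14, -0.30 and -0.08, higher by 1.69, and Zeb2 was at 1.66, -0.47, 0.87 and 1.60 against -0.84, -1.21, -1.19 and -1.33, higher by 2.06. The groups did not overlap for either. Another Zeb2 probe did not differ (-0.13) while 4 of its 5 were called higher. Cdh2 (N-cadherin), Foxc1 and Tbx15 were higher by 1.98, 2.42 and 1.89, although another Cdh2 probe gave -0.26. Snai1, Snai2 and Twist1, further inducers of the mesenchymal state, differed by 0.20, 0.57 and 0.45 and did not pass, and the intermediate filament gene Vim was at 6.98, 6.82, 6.63 and 6.84 against 6.20, 6.35, 5.96 and 6.10 without passing.

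Fibroblast genes were present in both groups, which were grown on feeders. Of 19 fibroblast surface and matrix genes, 3 rose and none fell (median 0.77), so that 15.8% were called, beside 20.1% of all probes. Pdgfrb, a growth factor receptor, was at 3.56, 2.81, 2.58 and 3.77 against 1.44, 1.72, 1.24 and 1.33, higher by 1.75 (SE 0.41, adjusted p = 0.00617), with 1-A3 and 1-D6 the highest. The collagens Col6a2 and Col5a2 were higher by 1.39 and 1.30, and both lost the call when 1-A3, 1-D6, F-B1, F-E4 or F-N7 was left out. Col1a1 was at 7.33, 6.57, 6.09 and 7.55 against 5.94, 6.41, 5.46 and 5.96, and Col1a2, Dcn, Prrx1 and Thy1 did not pass either. On a list of 12 fibroblast markers, 1 was called, and the summed linear level was 213 to 523 in iHAC1-iPS clones and 174 to 328 in iHAC-free iPS lines. Among 12 smooth muscle contractile genes none rose and 1 fell (Des, by 1.76), so that 8.33% were called, beside 20.1% of all probes. The 5 markers Acta2, Tagln, Cnn1, Myh11 and Myl9 were not called. The part of feeder cells in these differences was not tested.

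Members of other marker lists were read for cells that the cultures could hold. Of 5 endothelial markers, Pecam1 and Tek were called lower in iHAC1-iPS clones, Kdr was not called, and Cdh5 and Tie1 were not well above background on any of the 8 arrays. Their summed level was 0.057 to 0.273 in iHAC1-iPS clones and 0.436 to 0.495 in iHAC-free iPS lines. None of 5 blood cell markers was called. Pluripotent cell markers summed to 106 to 112 in iHAC1-iPS clones, where Pou5f1 gave most, and to 504 to 612 in iHAC-free iPS lines, where Dppa5a did.

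**Figure D4:**
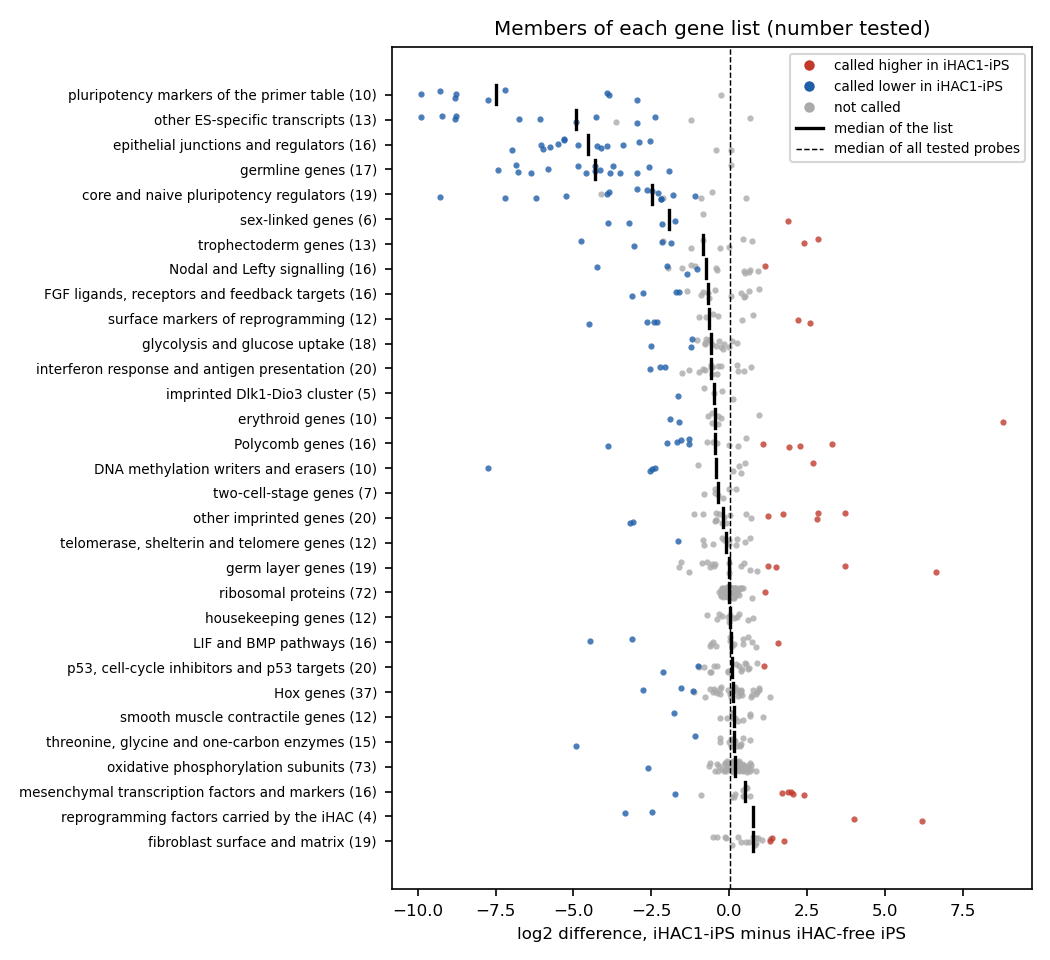
Log2 difference (iHAC1-iPS minus iHAC-free iPS, x axis) of each tested member of the gene lists, ordered by the median of the list (black bar). The pluripotency, epithelial and germline lists lie far to the left of the median of all probes (0.03), the ribosomal and housekeeping medians lie on it, and that of oxidative phosphorylation genes is at 0.20.

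Of 16 Nodal and Lefty pathway genes, 1 rose and 4 fell (median -0.74), so that 31.25% were called, beside 20.1% of all probes. Nodal, the TGF-beta ligand itself, was at -2.99, -0.14, 1.35 and -3.15 against 3.1, 3.0, 2.87 and 3.05, a difference of -4.24 (SE 0.81, adjusted p = 0.00179). Lefty1, its inhibitor and target, was at 0.74, 5.16, 4.58 and 2.19 against 3.75 to 4.74, so that the groups overlapped and it did not pass. Smad7, an inhibitory Smad, fell by 2.00, and the receptor gene Acvr1b by 1.04, a call lost under normexp correction and without 1-A3, 1-D6 or F-C5. Smad3, a transducer of the pathway, was higher by 1.16, at 1.17, 0.98, 0.84 and 1.05 against -0.19, -0.01, -0.18 and -0.21.

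In the LIF and BMP pathways, 1 of 16 genes rose and 2 fell (median 0.06), so that 18.75% were called, beside 20.1% of all probes. Both that fell are ligands. Bmp4 was at -3.96, -3.81, -3.63 and -4.17 against -0.95, -0.44, -0.89 and -0.85, a difference of -3.11 (SE 0.54, adjusted p = 0.00109), and Bmp7 fell by 4.47. Smad5, which relays BMP signals, was higher by 1.55. The LIF receptor genes Lifr and Il6st and the feedback gene Socs3 differed by 0.03, -0.41 and -0.62, and Stat3 by 0.60, all under 2-fold. Among 16 FGF genes, 4 fell and none rose (median -0.67), so that 25% were called, beside 20.1% of all probes. They were the ligand Fgf17, the receptors Fgfr4 and Fgfr2 and the ERK target Etv5, with differences of -3.12, -2.76, -1.69 and -1.60. Another Fgfr4 probe gave 0.15. Fgf17 was above background in 1 of 4 clones and lost its call under normexp correction (-0.66), and Etv5 lost it without 1-A3, 1-D6, F-C5 or F-N7. Fgfr2 lost its call without F-N7, where the list held 2 calls. The other FGF ligand genes tested, Fgf2, Fgf5 and Fgf15, were not called, Fgf15 being higher by 0.97 and Fgf2 by 0.63. Fgf5, a ligand of primed pluripotency, was at -4.01, 2.33, 3.37 and -1.45 against 2.46, 0.61, 1.66 and 0.96. For Fgf5, 1-B and 1-C3 were at the level of the lines or above it, and 1-A3 and 1-D6 were the lowest of the 8.

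Among surface markers used to follow reprogramming, 2 of 12 rose and 4 fell (median -0.64), so that 50% were called, beside 20.1% of all probes. Pecam1, a late marker, fell by 4.51 and was above background in 1 of 4 clones. Icam1, another marker of the late stage, was at -0.13, 0.17, 0.77 and -0.18 against 2.23, 2.82, 2.52 and 2.66, a difference of -2.40. Alkaline phosphatase (Alpl), an early marker, was at 4.24, 3.48, 3.53 and 4.12 against 4.14 to 4.55 and did not pass, while MEFs were at -3.12. Cd24a was higher by 2.22 and Cd200 at least 3.61-fold higher.

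Chromatin genes moved in both directions. Of 16 Polycomb genes, 4 rose and 6 fell, so that 62.5% were called, beside 20.1% of all probes. Cbx7, the chromobox subunit of the repressive complex PRC1 in ES cells, was at -0.75, -1.09, 0.54 and -1.68 against 3.05, 3.09, 3.19 and 3.31, a difference of -3.90 (SE 0.54, adjusted p = 0.000286). Its paralogues Cbx8 and Cbx2, which replace it in differentiating cells, were higher by 2.28 and 1.08. Bmi1, the PRC1 subunit that represses the Cdkn2a locus, was at 0.32, -0.86, -0.37 and 0.47 against -3.66, -3.24, -3.46 and -3.32, higher by 3.31 (SE 0.33, adjusted p = 3.95e-05) and close to the MEF level of -0.09. In PRC2, the cofactors Phf19, Jarid2 and Mtf2 fell by 1.66, 1.56 and 1.28, Eed by 1.29 and Ezh1 by 2.00, while the catalytic Ezh2 differed by -0.01.

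Of 10 genes that write or erase DNA methylation, 1 rose and 4 fell, so that 50% were called, beside 20.1% of all probes. The de novo enzyme genes Dnmt3a and Dnmt3b fell by 2.37 and 2.55, but Dnmt3b overlapped between groups, at -0.70, 3.71, 4.29 and 0.50 against 4.51, 3.94, 5.05 and 4.50, and its call (adjusted p = 0.0416) was lost when 1-A3, 1-D6 or any iHAC-free iPS line was left out. Tet1, the demethylase of ES cells, was at -1.31, -0.64, -0.67 and -1.76 against 1.05, 1.53, 1.26 and 1.66, a difference of -2.47. Tet3 was the gene that rose, at 0.37, -0.25, -0.13 and 0.43 against -2.58, -2.67, -2.42 and -2.62, higher by 2.68 (SE 0.35, adjusted p = 0.000187). The maintenance enzyme Dnmt1 differed by 0.30.

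The p53 pathway was of interest because iHAC2, unlike iHAC1, carried a p53 hairpin. Trp53 was at 0.96, 1.03, 1.25 and 1.12 against 1.92, 0.92, 1.92 and 1.21, and the difference of -0.40 did not pass (adjusted p = 0.219). A second Trp53 probe gave 0.72 (adjusted p = 0.00284), which is under 2-fold and so not a call. Cdkn1a (p21), a cell-cycle inhibitor that p53 induces, was at 3.25, 3.27, 3.01 and 3.23 against 1.76, 2.35, 2.08 and 2.06, higher by 1.13 (SE 0.21, adjusted p = 0.0018) and without overlap. Cdkn2a was at 0.29, 1.07, 0.34 and 0.86 against 0.16, 0.14, 0.08 and 0.18 and did not pass. Of 20 genes of the pathway, 1 rose and 2 fell (Gadd45a by 2.13 and Trp53inp1 by 1.0), with a median of 0.09. The share called was 15%, beside 20.1% of all probes. Trp53inp1 lost its call without 1-A3, 1-D6, F-C5, F-E4 or F-N7 and with slide as a random term.

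The largest increases in iHAC1-iPS clones included several developmental regulators. Foxd1, a forkhead factor of kidney stroma and retina whose promoter is shown above, was at 4.14, 1.84, 3.68 and 4.60 against -4.19, -4.44, -4.45 and -4.89, higher by 8.06 (SE 1.15, adjusted p = 0.000324). Zic1, a zinc finger factor of neural and mesodermal development, was at 3.56, 3.16, 3.26 and 4.12 against -3.58, -3.0, -2.89 and -3.14, higher by 6.67 (SE 0.49, adjusted p = 6.41e-06). MEFs had 0.68 for Foxd1 and 2.77 for Zic1, below every iHAC1-iPS clone. Vax2, a homeobox gene of the ventral eye, was at 2.93, 2.71, 2.50 and 2.90 against -3.01, -2.47, -3.30 and -2.75, with MEFs at -3.61 and the ES mean at -3.09. Vax2 was therefore high in all 4 clones and in neither reference.

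Slc38a5, a glutamine transporter, was at 3.19, 7.48, 5.15 and 3.97 against 0.06, -1.09, -0.43 and -1.19, and Lrmp, a membrane protein of lymphoid cells, at 2.58, 6.25, 3.68 and 3.65 against -0.84, -1.47, -1.35 and -1.28. For both genes 1-B was the highest and 1-A3 the lowest clone, and both lay above MEFs and the ES mean. Zfp536, a neural zinc finger gene, was higher by 5.35, and Shisa3 by 5.16. Genes that were not above background in any iHAC-free iPS line included Serpina1d, an antitrypsin gene, at least 36.3-fold higher, Avil (advillin, an actin regulator of sensory neurons), at least 29.3-fold higher, the receptor gene Gpr37, at least 16.2-fold higher, and Fcgr2b, an immunoglobulin receptor gene, at least 14.6-fold higher. The transcript 4930579C12Rik and the exchanger gene Slc9a2 were at least 23.2- and 14.1-fold higher. Arpp21 was at least 13.6-fold higher at its first probe, though its other probe gave -0.79.

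The overlapping Hbb-bh1 probes shown above gave different results. At A_51_P179672 the iHAC1-iPS clones had 1.95, 1.67, 1.56 and 2.26 and the iHAC-free iPS lines -6.34, -7.05, -7.60 and -6.71, none of the latter above background, so that the clones were at least 140-fold higher. At A_52_P305876 they had -5.88, -7.67, -7.76 and -8.02 against -7.04, -7.26, -7.78 and -7.40, and no array of either group was above background. The probes differ in 20 bases at either end of the shared stretch. iHAC2-iPS clones had means of 0.32 and -6.81 at these probes. Of 10 erythroid genes, 1 rose (Hbb-bh1, taken by its probe A_51_P179672) and 2 fell, so that 30% were called, beside 20.1% of all probes. Hba-x and Alas2 were not above background on any of the 8 arrays, and Tal1 and Gata1, transcription factors of blood formation, fell by 1.90 and 1.62 but were not called under normexp correction (-0.53 and -0.24), where the median of the list moved from -0.46 to 0.25. Whether the first probe reads Hbb-bh1 itself was not tested.

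**Figure D5:**
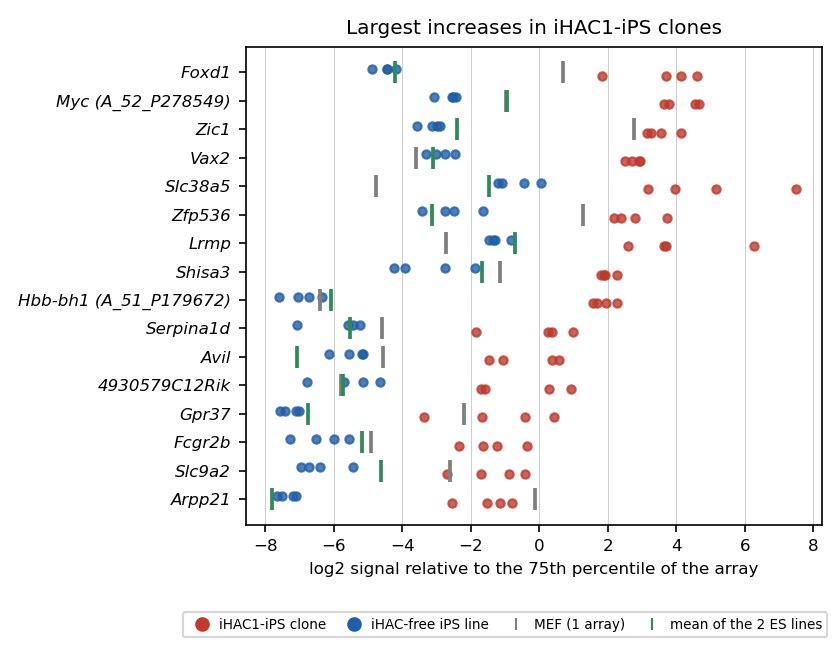
Log2 level, relative to the 75th percentile of the array, of the genes with the largest increases in iHAC1-iPS clones; the upper 8 were above background on all 8 arrays and the lower 8 in no iHAC-free iPS line. Red dots are iHAC1-iPS clones, blue dots iHAC-free iPS lines, and bars MEFs (grey) and the ES mean (green).

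Of 19 germ layer genes, 4 rose and none fell (median -0.01), beside 8.99% higher and 11.1% lower over all probes, and Zic1, Pax6 and Afp were among those that rose. Afp, a gene of endoderm and fetal liver, was above background in 2 clones and no line, its bound was 1.08-fold, and its call was lost in 5 of 15 settings, normexp correction (0.50) among them. Pax6, a neural and eye regulator, was at -1.54, -1.96, -2.17 and -2.04 against -5.04, -5.87, -5.59 and -6.06, above MEFs (-3.62) and ES cells (-4.44). Brachyury (T), the mesoderm gene, was at -7.15, -3.71, -0.27 and -5.96 against -1.0, -5.47, -2.75 and -4.98, so that both groups varied widely. On the list of 6 neural cell markers, 3 were called higher, among them Pax6 and Map2, the median difference was 0.97, and the summed level was 11.6 to 17.3 in iHAC1-iPS clones and 6.24 to 11.9 in iHAC-free iPS lines. Of 13 trophectoderm genes, 2 rose and 4 fell (median -0.83, but 0.22 among probes above background on all arrays). Thus 46.15% were called, beside 20.1% of all probes. Esx1 and Tfap2a were higher by 2.85 and 2.41, Krt7 and Tfap2c fell by 4.77 and 2.15, and Hand1 was at least 2.66-fold lower, a call lost in 5 of 15 settings (normexp correction, with -0.35, and without 1-A3, 1-B, 1-D6 or F-N7). Of 37 Hox genes none rose and 3 fell, among them Hoxb13 and Hoxd1, all from low levels. Thus 8.11% were called, beside 20.1% of all probes, and none under normexp correction. Hoxb13 lost its call (-0.24) and Hoxd1 turned to 0.25 under normexp correction.

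Imprinted genes were called singly. In the Dlk1-Dio3 cluster, whose silencing in some iPS lines limits their developmental potential, Meg3 was at 3.30, 2.97, 2.21 and 3.33 against 2.97, 4.20, 2.98 and 3.67 and Rian at -0.30, -0.28, -0.21 and 0.91 against 0.24, -0.18, -0.30 and -0.16, with overlapping groups. Of the 5 cluster genes tested Dio3 alone was called (fell by 1.63), which is 20%, beside 20.1% of all probes. None was called under normexp correction, where the Dio3 difference was -0.54. Of 20 other imprinted genes, 5 rose and 2 fell, so that 35% were called, beside 20.1% of all probes. Plagl1, a paternally expressed zinc finger gene, was at 3.91, 2.40, 3.35 and 3.40 against 0.75, 0.03, 0.66 and 0.21, and Peg12 at 2.95, 1.76, 2.29 and 3.12 against -0.43, -0.36, -0.40 and 0.10. Nnat was higher by 3.71, although F-N7, at -0.24, was as high as the clones while the other lines lay between -5.73 and -4.67. Phlda2, a maternally expressed growth regulator, was at -0.93, 3.08, 3.55 and -0.02 against 4.32 to 4.62, a difference of -3.1. H19 and Igf2 did not pass.

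Sex-linked genes also separated the groups. The Y-linked Eif2s3y was at -2.07, -1.96, -2.91 and -1.55 against 2.04, 0.66, 2.49 and -0.77, and Ddx3y at -2.54, -2.35, -3.17 and -1.93 against 0.17, -0.93, 0.18 and -0.85. Uty was not above background in any iHAC1-iPS clone, and its call was lost under normexp correction (-0.55). The ES mean was close to the iHAC1-iPS clones for Eif2s3y, Ddx3y and Uty, at -1.91, -2.48 and -7.68. MEFs were at 1.565, 1.29 and -3.80, so that low Y-linked levels were not particular to the iHAC1-iPS clones. Xist, the RNA of the inactive X chromosome, was at 0.33, 2.62, 0.32 and 1.91 against -1.10, -0.19, -0.81 and -0.29, higher by 1.89 (SE 0.50, adjusted p = 0.011), and Tsix, its antisense partner, fell by 1.75 but was not called under normexp correction (-0.36). Of 11 tested probes on the Y chromosome 7 were lower (median -2.14), and 14.8% of X-linked probes were higher, against 8.99% of all. On the autosomes the share of higher probes ran from 6.19% on chromosome 11 to 11.9% on chromosome 6. The labels give no sex, and differences of sex or of X and Y content between the clones cannot be told apart from the group.

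Of 73 oxidative phosphorylation subunits 1 fell and none rose (median 0.20), and the one was Cox7a1, an isoform of muscle, a difference of -2.59. Of 18 genes of glycolysis and glucose uptake 3 fell (Aldoc, Slc2a1 and Slc2a3, by 2.51, 1.23 and 1.19) and none rose (median -0.58), and the glucose transporter genes Slc2a1 and Slc2a3 lost the call without 1-A3 or without 1-D6 (Slc2a1 also without F-B1 and with the 8 arrays alone in the fit). Of 15 genes of threonine, glycine and one-carbon metabolism 2 fell, Tdh and the glycine decarboxylase gene Gldc, the latter by 1.11. Of 72 ribosomal protein genes Rpl21 alone rose (1.16, while its other probe was not called). None of 12 housekeeping genes was called, Actb being higher by 0.78. Interferon and antigen presentation genes fell in 3 of 20 cases (Oas1a, Psmb9 and Stat2) and rose in none (median -0.57). Of 12 telomere genes Tert, the catalytic subunit of telomerase, fell by 1.63. The share called was 1.37% of the oxidative phosphorylation, 16.7% of the glycolysis, 13.3% of the one-carbon, 1.39% of the ribosomal protein, 15% of the interferon and 8.33% of the telomere genes. Over all probes it was 20.1%.

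Genes not tied to a list completed the largest decreases. Apoc1, an apolipoprotein gene, was at -3.34, -1.33, -1.07 and -3.55 against 3.74, 4.77, 4.13 and 4.65, a difference of -6.64 (SE 0.59, adjusted p = 2.16e-05). Pycard, the inflammasome adaptor whose promoter is shown above, was at -2.35, -2.45, -3.02 and -1.75 against 3.76, 4.06, 3.96 and 4.21, a difference of -6.39 (SE 0.45, adjusted p = 5.56e-06), and lay below the MEF level of 0.57 in every clone. The zinc finger gene Zfp640, Triml1 and Nlrp4f, the last of a family expressed in oocytes, were not above background in any iHAC1-iPS clone and at least 83.5-, 82.9- and 68.2-fold lower.

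The clones varied among themselves more than the lines did. The median SD of a probe was 0.27 over the iHAC1-iPS clones and 0.22 over the iHAC-free iPS lines, and it was larger in the clones at 62.3% of probes. At ES-high probes the median SD was 0.56 against 0.26, and at MEF-high probes 0.54 against 0.34. Nodal, Cdh1, Tdh, Lin28a, Krt8, Tex19.1 and Phlda2, given above, all had 1-B and 1-C3 above 1-A3 and 1-D6. Foxd1, Zic1, Pdgfrb and Plagl1 had the reverse order, with 1-A3 and 1-D6 above 1-B and 1-C3. The clone 1-D6 was hybridized on the slide of the ES lines and the other iHAC1-iPS clones on the slide of the MEFs. An effect of the slide on these orders was not tested.

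The promoters of the called genes differed in CpG content in one direction. RefSeq's GRCm38.p6 table held a promoter, from 250 bases before to 50 after the start, for 13310 of the 17450 genes tested, and the first one listed for a gene was used. The median ratio of observed to expected CpG was 0.70 over all genes and 0.69 over genes higher in iHAC1-iPS clones, but 0.55 over genes lower there. A ratio over 0.6 was found for 61.0%, 61.3% and 46.0% of these promoters. Within the ES-high genes the median was 0.50 for those called lower and 0.65 for those not called. Of the promoters shown, Zic1 holds 27 CpG and Foxd1 12, and Rhox5 4 and Pycard 2. Over the 250 bases shown, their ratios were 0.99, 0.60, 0.36 and 0.14. Foxd1 was thus under the median of all genes, which was taken over 50 further bases. The octamer ATGCAAAT, to which Oct4 binds, was on either strand of 1.63% of the promoters of lower genes and 1.58% of all. The Klf-type words GGGTGTGG and GGGCGTGG were in 13.9% of lower, 9.74% of higher and 11.9% of all promoters, and the E-box CACGTG in 10.6%, 7.79% and 9.41%. TATAAA was in 8.85% of lower, 8.98% of higher and 9.91% of all promoters. These are descriptions of sequence, were not tested, and a match is not a bound site.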

How the data were processed

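RNA of 16 samples was labelled with Cy3 and hybridized by the authors to Agilent arrays, and their deposited scanner files hold spot intensity as a linear value, less a fitted background, with small values replaced by a surrogate, and unscaled between arrays. GeneSpring GX was then used by the authors for normalization, and the log2 table they deposited, which is centred per probe, served as an alternative (slopes of 0.999 to 1.000 against the scanner values).

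Control spots and 46 to 94 outlier spots an array were left out, spots of a probe were averaged, and the log2 of the 75th percentile of each array was subtracted from the log2 of its processed signals. Gene names came from the files, and 26690 of 28026 probes with a RefSeq accession and 6141 others were matched to RefSeq's GRCm38.p6 table. Nanog was named from its description. Probe positions are those of the files (mm9). A gene was read by the probe whose mean over all arrays was highest. Groups were taken from the sample titles. limma 3.58.1 in R 4.3.3 (lmFit, eBayes) was run on all 16 arrays in 6 groups, without covariates, and tested on simulated data. Positions were compared by exact permutation tests. A few arrays a group limit the precision of every value. The clones and lines are separate isolates.

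Named were the genes with qRT-PCR primers in the study, the 8 largest differences in each direction among named probes above background on all 8 arrays and without overlap, the 8 largest bounds in each direction, and up to 5 called members of each of 31 gene lists, with other members by value. Further called members of a list that the text names were chosen after their values were seen. The members and lists were chosen with earlier results of these data known. Alternatives were normexp correction (offset 50), quantile normalization, the value table, other filters, outlier spots kept, only the 8 arrays, slide as a random term, 1 probe per gene, other probes of a gene, another selection or summary of positions, and each array left out. Python 3.11.15 was used with scipy 1.17.1, pandas 2.3.3 and numpy 2.4.6. The qRT-PCR data, and genes without a probe by name (such as Prdm14, L1td1 and Fgf4), were not analysed here. A few list members are not reported here by name.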

Additional observations from a re-analysis of the deposited data

Results flagged for a closer look

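In groups of 4 samples, a sample was singled out when its gap to the nearest other sample exceeded Dixon's critical share of the range of the group. This held for 11 of 262 groups of values (named genes, positions and the share of spots above background), and chance alone gives about 1 in 20, or 13.1. Among iHAC1-iPS clones, 1-D6 stood apart for Klf4 (2.97, the others at 2.14 to 2.21) and for Ezh1 (-4.02, against -3.16 to -3.03). 1-A3 stood apart for Rab25 (-5.87, against -5.48 to -5.43) and for Meox1 (-7.17, against -5.88 to -5.77), a gene that was not above background in any of these clones. 1-B stood apart for Tfap2c (0.53, against 1.40 to 1.53) and for Tert (-1.54, against -2.81 to -2.68), and 1-C3 for Cdkn1a (3.01, against 3.23 to 3.27). Among iHAC-free iPS lines, F-B1 stood apart for Dppa5a (8.77, against 9.04 to 9.08), F-C5 for Ooep (3.40, against 3.06 to 3.09) and for Smad3 (-0.0115, against -0.21 to -0.18), and F-N7 for Peg12 (0.10, against -0.43 to -0.36).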

How the results depend on the processing

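No paired analysis was possible because the replicate numbers only name clones and lines in the order of the samples, and no iHAC1-iPS clone shares its origin with an iHAC-free iPS line. Against 6309 called probes (2825 higher, 3484 lower), normexp correction gave 2980 (1405 and 1575), probes above background on all 16 arrays 3351 (1532 and 1819), and 1 probe per gene, from fewer probes, 3663 (1586 and 2077). Normexp moved the median of all probes from 0.03 to 0.19 and no filter to -0.11. Leaving out 1 array gave 5479 to 6549 called probes, and no probe was called in opposite directions under any setting. The ES-high position difference lay between 40.1 and 66.6 points under the other settings, and between 49.3 and 59.2 with 1 array left out, where the exact permutation test cannot give a p below 0.0571. In the exact permutation test the MEF-high difference of 14.4 passed at p = 0.0286 under normexp (19.6), quantile normalization (22.2), probes above background on all arrays (23.4) and the mean over probes (17.7). The MEF-high difference was smaller with an 8-fold selection (10.1) and with a 4-fold selection against each ES line separately (12.2). It was 13.8 with dim values raised to the lowest signal well above background. None of these smaller differences passed the exact permutation test. With 1 array left out the MEF-high difference lay between 11.5 and 17.8. Of 128 called named probes, 104 were called under every setting run, 13 were not under normexp correction, and 1 changed sign, Hoxd1 (0.25 under normexp correction). Another probe of the gene gave the opposite sign for Myc (-1.60), Trp53 (0.72), Arpp21 (-0.79), Fgfr4 (0.15), Zeb2 (-0.13) and Cdh2 (-0.26). The cause was not tested. Low signals limit the lists with many genes near background, such as the germline list (2 of its 16 calls among probes above background on all arrays).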
